A study of Mus musculus with 2 samples.

Results

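Nuclear genes for the mitochondrial respiratory chain and ATP synthase were examined in polyadenylated RNA of the mouse sigmoid colon, the S-shaped end of the large bowel before the rectum. Members were the protein-coding genes whose symbols begin with Ndufa, Ndufb, Ndufc, Ndufs, Ndufv, Uqcr, Cox4 to Cox8 or Atp5, together with Sdha, Sdhb, Sdhc, Sdhd, Cyc1 and Cycs. This gave 95 of the 43346 Ensembl genes in the deposited tables, of which 36 belong to complex I, 4 to complex II, 9 to complex III, 20 to complex IV and 16 to complex V, which is ATP synthase. Cycs encodes cytochrome c, the mobile carrier between complexes III and IV, and the remaining 9 are factors of assembly or regulation that share the prefixes (Ndufaf1 to Ndufaf8 and Atp5s). The study holds 1 group, namely tissue of 1 female adult C57BL/6J mouse aged 10 weeks, an inbred strain, with no treatment named in the labels. Its RNA was extracted with a kit for lipid-rich tissue and sequenced as 2 technical libraries, numbered as the labels number the technical replicates. Library 2 is the later one, from 2015, and both carry the same label for fragment size, 350 to 450. With 1 animal and 1 condition, every comparison is of library 2 with library 1, and each p-value leaves variation between animals out.

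The respiratory chain sits in the inner mitochondrial membrane and passes electrons from NADH and succinate to oxygen, pumping protons that ATP synthase then uses to make ATP. Complex II is encoded in the nucleus alone, while complexes I, III, IV and V combine nuclear subunits with a few that are made inside mitochondria from mitochondrial DNA. Most nuclear subunits are present in the same number of copies in their complex, apart from the c ring and the catalytic head of ATP synthase, so their transcripts are often compared as a set. In the colon, absorptive epithelial cells rely on this pathway to burn butyrate made by gut bacteria, and the muscle wall depends on it as well.

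The ratio between the libraries differed among the members along with the base composition of their transcripts, as given further on. To show this composition, the start of the coding sequence is printed for the member with the highest and the member with the lowest ratio of library 2 to library 1 in complexes III, I, V and IV, among those with a mean of at least 100 counts. Each line gives the first 90 coding bases of a GENCODE M21 transcript on GRCm38, with every G and C in capitals. Uqcr11 lies at chr10:80402997-80406830 on the minus strand and Uqcrb at chr13:66900617-66905378 on the minus strand. Ndufa13 lies at chr8:69894180-69902558 on the minus strand and Ndufb4 at chr16:37647170-37654453 on the minus strand. Atp5d lies at chr10:80138632-80145818 on the plus strand and Atp5j at chr16:84827866-84835625 on the minus strand. Cox7a1 lies at chr7:30184144-30186078 on the plus strand and Ndufa4 at chr6:11900292-11907497 on the minus strand.
Uqcr11: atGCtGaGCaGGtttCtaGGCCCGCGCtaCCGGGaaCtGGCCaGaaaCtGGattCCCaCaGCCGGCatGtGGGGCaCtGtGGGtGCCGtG
Uqcrb: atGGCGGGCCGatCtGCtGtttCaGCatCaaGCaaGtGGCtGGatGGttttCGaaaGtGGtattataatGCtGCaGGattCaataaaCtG
Ndufa13: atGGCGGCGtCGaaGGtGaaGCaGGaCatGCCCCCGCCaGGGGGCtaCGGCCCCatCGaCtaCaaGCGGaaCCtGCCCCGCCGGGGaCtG
Ndufb4: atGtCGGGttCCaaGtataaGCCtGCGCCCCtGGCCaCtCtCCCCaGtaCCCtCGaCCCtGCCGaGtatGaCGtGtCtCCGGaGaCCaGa
Atp5d: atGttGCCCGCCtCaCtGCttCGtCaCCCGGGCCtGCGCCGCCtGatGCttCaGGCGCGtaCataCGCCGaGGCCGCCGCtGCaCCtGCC
Atp5j: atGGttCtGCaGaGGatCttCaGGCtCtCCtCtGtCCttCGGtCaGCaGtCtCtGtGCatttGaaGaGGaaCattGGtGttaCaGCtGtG
Cox7a1: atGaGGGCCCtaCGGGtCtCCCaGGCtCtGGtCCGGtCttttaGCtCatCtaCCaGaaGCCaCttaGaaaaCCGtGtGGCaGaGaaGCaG
Ndufa4: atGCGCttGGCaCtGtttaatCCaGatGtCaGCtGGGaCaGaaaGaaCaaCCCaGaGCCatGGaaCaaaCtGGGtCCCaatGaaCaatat
Of these 90 bases, G and C made up 57 in Uqcr11 against 41 in Uqcrb, 63 in Ndufa13 against 55 in Ndufb4, 63 in Atp5d against 45 in Atp5j, and 50 in Cox7a1 against 42 in Ndufa4. Over the whole coding sequence the GC content was 60.7% in Uqcr11 and 42.9% in Uqcrb, 60.2% in Ndufa13 and 51.4% in Ndufb4, 61.9% in Atp5d and 43.5% in Atp5j, and 56.7% in Cox7a1 and 45.6% in Ndufa4. In each of the 4 pairs, the member with the higher ratio was the richer in G and C. The pairs illustrate the composition and were picked as extremes of the ratio. The low ratio of Ndufb4 is uncertain because of reads shared with a pseudogene, as given further on.

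Library 2 held 20681574 expected counts, which are model estimates that divide ambiguous reads among transcripts, and library 1 held 25843064. Mitochondrial genes took 12.6% of the TPM (a length-corrected level that sums to 1000000 in each file) of library 2 and 44.2% of that of library 1. Epithelial markers summed to 5152 TPM in library 2 and 898 TPM in library 1 over 5 genes, and smooth muscle markers to 3731 and 262 TPM over 5 genes, so markers of both tissue layers were detected in both libraries. Krt8 held most of the epithelial sum of library 2, at 2931 TPM against 60.7 TPM in library 1. By the calls defined below, all 5 smooth muscle markers and 2 of the 5 epithelial markers were higher in library 2, and the other 3 epithelial markers neither. The smooth muscle markers had 51.4 to 56.4% GC. Among all genes tested 37.0% were called higher, with 53.95% of those from 50 to 55% GC and 93.6% of those of at least 55%. The part of the markers in the results on the members was not tested. Both libraries are labelled as technical replicates of the same mouse. In bulk tissue, the level of a marker does not tell apart the number of cells of a type and the RNA per cell.

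The members together made up 31026 TPM in library 2, or 3.10% of the total, against 9560 TPM in library 1, or 0.956%. By counts they took 1.39% of library 2 (95% Wilson interval 1.38 to 1.39%) and 0.547% of library 1 (0.5438 to 0.5495%). Intervals cover counting error only, and no molecular identifiers are named in the labels. Over nuclear protein-coding genes alone, which leaves the mitochondrial transcripts out of the total, the shares were 4.12% in library 2 and 3.05% in library 1. The median member was at 223 TPM in library 2 and at 25.3 TPM in library 1. In library 2, 73 members exceeded 100 TPM, 3 were below 1 TPM and 2 had no count. In library 1, 26 exceeded 100 TPM, 16 were below 1 TPM and 8 had no count. The deposited TPM was higher in library 2 for 82 members and higher in library 1 for 12. Cox8c was at 0 in both.

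**Figure D1:**
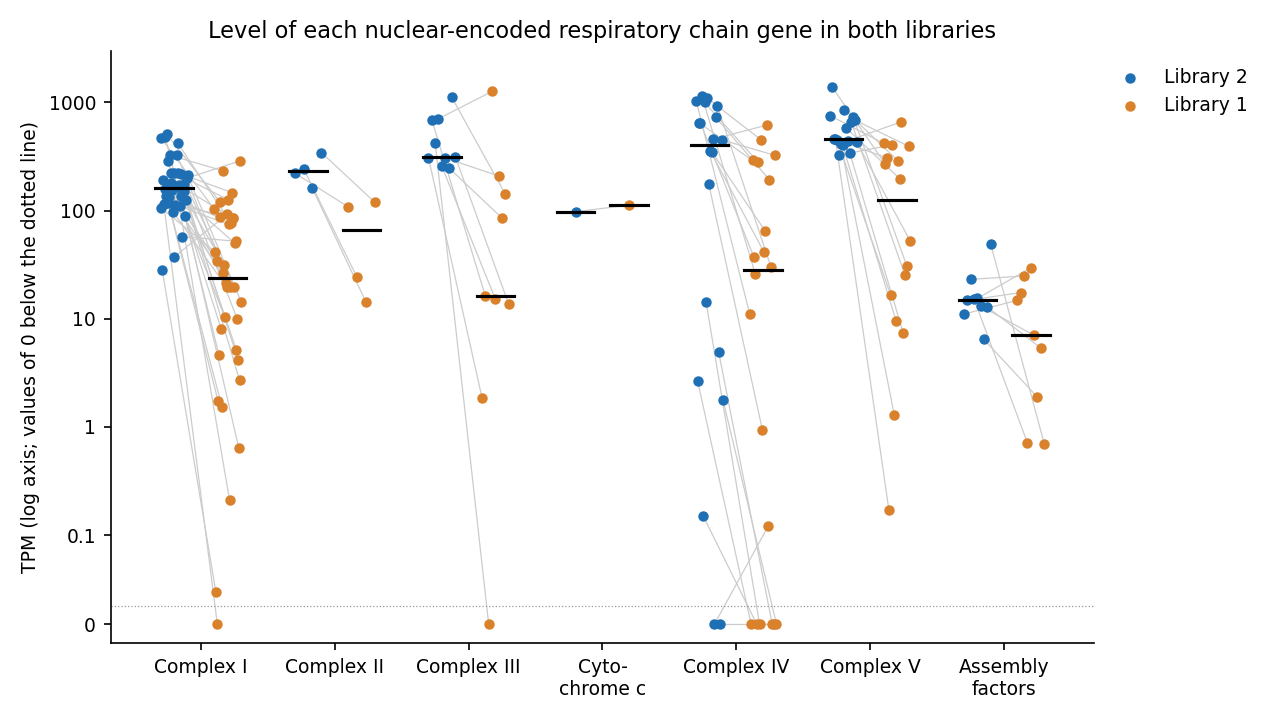
TPM of each of the 95 genes on a log axis, grouped by complex, with library 2 on the left and library 1 on the right of each group. Each point is a gene, grey lines join its values, black bars are medians and values of 0 stand below the dotted line. Complex I spans 28.1 to 506 TPM in library 2 and 0 to 288 TPM in library 1.

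For the ratio between libraries, counts were scaled to effective library sizes and each gene was tested by a two-sided exact binomial test with Benjamini-Hochberg adjustment over 15711 genes with a mean of at least 10 counts. A gene was called higher or lower in library 2 at an adjusted p under 0.05 and a change of at least 2-fold. Of the 95 members, 91 were tested, and 52 were called higher in library 2, 11 lower and 28 neither. Among all genes tested, 37.0% were called higher and 28.2% lower. The counts of calls by complex given below stand beside these same shares. The median log2 ratio was 1.33 over the members and 0.12 over all genes tested. It stayed at 1.33 with the 5 tested members that had no count in library 1 placed at the bound that 3 counts allow. The test covers counting error in these 2 libraries only. An alternative test, given next, took its spread from the differences between these same 2 libraries. It had little room to call any gene, so its lack of calls decides nothing. With edgeR's exact test and a common dispersion estimated over both libraries as 1 group, no member and no gene was called, while 16 members and 1030 of all genes had an unadjusted p under 0.05.

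Complex I takes electrons from NADH, and its 7 nuclear core subunits form the arm that carries the flavin and the iron-sulfur clusters. Of these, 5 were called higher in library 2, 1 lower and 1 neither, with a median log2 ratio of 2.70. Ndufv1, which holds the NADH and flavin site, had 2406 counts and 125 TPM in library 2, against 41 counts and 2.72 TPM in library 1, a log2 ratio of 5.43 ± 0.23 (counting SE). Ndufv2, the partner of Ndufv1 in the NADH module, had 2715 counts and 199 TPM in library 2, against 5213 counts and 288 TPM in library 1, and was called lower (-1.37 ± 0.03). These 2 subunits of the same module therefore lay on opposite sides. The cluster-bearing subunits Ndufs7 and Ndufs8 were at 150.1 and 89.6 TPM in library 2, against 4.17 and 0.64 TPM in library 1. Their log2 ratios were 5.17 and 5.91. Ndufs3, in the peripheral arm, was at 136 TPM in library 2 and 49.7 TPM in library 1, with a log2 ratio of 1.02 that only just passed 2-fold. Ndufs1, the largest of the core subunits, was at 111 TPM in library 2 and 85.6 TPM in library 1, yet by scaled counts its log2 ratio was -0.80 and it was called neither. Across the 7 the highest TPM was 2.42 times the lowest in library 2 and 449.5 times in library 1.

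Of the 29 accessory subunits of complex I, which surround the core and are needed for its assembly and stability, 18 were called higher in library 2, 2 lower and 9 neither. The 3 with the highest mean TPM in complex I were all accessory. Ndufa6, a subunit that binds the acyl carrier protein, was at 506 TPM in library 2 and 119 TPM in library 1. Ndufa1, encoded on the X chromosome, was at 472 and 103 TPM. Ndufab1, the mitochondrial acyl carrier protein that also serves fatty acid synthesis, was at 325 and 232 TPM. By scaled counts Ndufa1 was called higher (log2 ratio 1.08), whereas Ndufa6 (0.96) and Ndufab1 (-0.86) were called neither. Ndufa13, also known as GRIM-19, had 1754 counts in library 2 and none in library 1. It was 434-fold higher in library 2 with library 1 set at 3 counts, and its 95% counting interval starts at 353-fold. Ndufa11 had 1002 counts in library 2 and 2 in library 1, a 372-fold ratio with a 95% counting interval of 103 to 3077. Both are subunits of the membrane arm. At the other end Ndufb4 was called lower (-1.37), which changed when reads shared with a processed pseudogene were added, as given further on. The remaining accessory subunit called lower was Ndufs4, named after its values were seen, at 57.5 TPM in library 2 and 51.98 TPM in library 1 (-1.02), whose sign was positive by deposited TPM. Over all 36 genes of complex I, 23 were called higher, 3 lower and 10 neither.

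Complex II is succinate dehydrogenase, shared with the citric acid cycle. Sdha, the flavin subunit, had 8208 counts and 223 TPM in library 2, against 5613 counts and 108 TPM in library 1, with a log2 ratio of 0.12 ± 0.03 that was called neither. Sdhd, a membrane anchor, was at 344 TPM in library 2 and 119 TPM in library 1 (0.37), also neither. Sdhb, the iron-sulfur subunit, had 3376 counts and 244 TPM in library 2, against 540 counts and 24.2 TPM in library 1, and was called higher (2.21 ± 0.07). Sdhc, the other anchor, was at 160.0 TPM in library 2 and 14.3 TPM in library 1 and was called higher (2.67 ± 0.08). No gene of complex II was called lower. The 4 genes lay within 160.0 to 344 TPM in library 2, whereas in library 1 Sdha and Sdhd stood above 100 TPM and Sdhb and Sdhc below 25 TPM.

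Complex III passes electrons from ubiquinol to cytochrome c. Of its 9 nuclear genes, 6 were called higher in library 2, 1 lower and 2 neither, with a median log2 ratio of 4.13. Cyc1, the cytochrome c1 that hands electrons on (chr15:76343523-76346260), had 4493 counts and 308 TPM in library 2, against 45 counts and 1.86 TPM in library 1. Its log2 ratio was 6.20 ± 0.22. Uqcrfs1, the Rieske iron-sulfur protein, was at 249.55 TPM in library 2 and 85.1 TPM in library 1 and was called neither (0.39). The core proteins split in the same manner, with Uqcrc1 at 256 and 15.2 TPM and called higher (4.22), and Uqcrc2 at 306 and 209 TPM and called neither (-0.23). Among the 5 small subunits, Uqcr11 had 1623 counts and 421 TPM in library 2 and no count in library 1, at least 402-fold higher. Uqcr10 had 2647 counts and 692 TPM in library 2, against 99 counts and 16.2 TPM in library 1 (4.31 ± 0.15). Uqcrh, the hinge protein that docks cytochrome c, was at 1109.6 TPM in library 2 and 141 TPM in library 1 (1.81). Uqcrb, which binds near the ubiquinone site, had 3619 counts and 706 TPM in library 2, against 10525 counts and 1261 TPM in library 1, and was called lower (-1.97 ± 0.03). Uqcrb was the member with the highest TPM in library 1 and ranked 12 of the members in library 2. Its opposite, Uqcr11, was among the members without a count in library 1.

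Cycs had 2818.5 counts and 97.3 TPM in library 2, against 7707 counts and 112 TPM in library 1, and was called lower (-1.88 ± 0.03). Its mean over the 2 technical libraries was 105 ± 10.7 TPM (SD). Taken alone, Cycs lay below the medians of complexes I to V in library 2 (163 to 460.1 TPM). In library 1 it lay above those of complexes I to IV (16.2 to 66.2 TPM). Gm10053, a protein-coding entry that shares sequence with Cycs, was at 161 TPM in library 2 and 196 TPM in library 1. It is left out of this comparison, so the level of Cycs against the medians is uncertain.

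Complex IV, cytochrome c oxidase, reduces oxygen to water. Its 11 widely expressed nuclear subunits were taken to be Cox4i1, Cox5a, Cox5b, Cox6a1, Cox6b1, Cox6c, Cox7a2, Cox7b, Cox7c, Cox8a and Ndufa4. They lay within 356 to 1153 TPM in library 2 and within 11.1 to 616 TPM in library 1, a range of 3.24-fold in library 2 and 55.7-fold in library 1. Of the 11, 5 were called higher in library 2, none lower and 6 neither. Among all genes tested the shares were 37.0% higher and 28.2% lower. Cox4i1, the largest of the nuclear subunits, had 8341 counts and 1034 TPM in library 2, against 93 counts and 11.1 TPM in library 1 (6.05 ± 0.15). Cox6a1 had 6505 counts and 1153 TPM in library 2, against 238 counts and 25.9 TPM in library 1 (4.34 ± 0.10). Cox8a was at 931 TPM in library 2 and 30.3 TPM in library 1 (3.81). By contrast, Cox6c had 5384 counts and 1090.4 TPM in library 2, against 3913 counts and 451 TPM in library 1, with a log2 ratio of 0.03 ± 0.03. Cox6c ranked 4 of all members by TPM in both libraries. Cox6b1, which faces the intermembrane space, was at 998 TPM in library 2 and 279 TPM in library 1 (0.71). Cox7b had 4919 counts and 456 TPM in library 2, against 5633 counts and 616 TPM in library 1 (-0.63 ± 0.03). Ndufa4, long counted with complex I and now placed in complex IV, was at 451 TPM in library 2 and 323 TPM in library 1 (-0.65). Over all 16 tested genes of complex IV the median log2 ratio was 2.64, or 2.13 with the 3 genes that had no count in library 1 placed at their bound.

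Complex IV and the c ring of ATP synthase have genes that encode alternative forms of a subunit. Of the heart and skeletal muscle forms, Cox6a2 and Cox8b were low in both libraries and Cox7a1 was low in library 1. Cox6a2 had 1 count in library 2 and none in library 1, which is within the 3 counts that a count of 0 allows. Cox8b had 13 counts and 4.89 TPM in library 2 and none in library 1, and its mean count was too low to be tested. It was 3.22-fold higher with library 1 set at 3 counts, and its 95% counting interval starts at 2.26-fold. Cox7a1, the muscle form of COX7A, had 468 counts and 174 TPM in library 2, against 4 counts and 0.94 TPM in library 1, and was called higher (6.27 ± 0.68). It made up 32.8% of the COX7A transcripts in library 2 and 2.21% in library 1, and Cox7a2, the widely expressed form, was at 356 and 41.5 TPM. Skeletal muscle markers summed to 33.4 TPM in library 2 and 0.76 TPM in library 1 over 8 genes. All 3 of these that could be tested were called higher, and Myh4, a fast myosin, was at 0 in both libraries. The 3 had 52.9 to 60.9% GC. Of all genes tested, 53.95% from 50 to 55% GC and 93.6% of at least 55% were called higher. The 4 heart markers summed to 10.6 TPM in library 2 and 1.20 TPM in library 1, with Myh6 at 0 in both. Brown fat, which also makes Cox7a1 and Cox8b, had its 3 markers at 8.49 TPM in library 2 and 1.14 TPM in library 1, with Ucp1 at 0.14 and 0.06 TPM. The part of these cells in the Cox7a1 and Cox8b values was not tested.

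Forms known from testis were also low or not detected. Cox7b2 had no count in library 2 and 1 in library 1, and Cox8c had none in either, which allows up to 3 counts per library. Cox6b2 had 63 counts and 14.4 TPM in library 2 and none in library 1, and made up 1.42% of the COX6B transcripts in library 2. It was 15.6-fold higher with library 1 set at 3 counts, and its 95% counting interval starts at 12.3-fold. Testis markers summed to 0.21 TPM in library 2 and 0.30 TPM in library 1 over 6 genes, and Prm1, Prm2 and Tnp1 were at 0 in both. Cox4i2, a form linked to lung and to cells that sense oxygen, had 21 counts and 2.67 TPM in library 2 and none in library 1. It was 5.20-fold higher with library 1 set at 3 counts, and its 95% counting interval starts at 3.87-fold. Ndufa4l2, induced by low oxygen, had 20 counts and 1.78 TPM in library 2 and none in library 1. It was 4.95-fold higher with library 1 set at 3 counts, and its 95% counting interval starts at 3.67-fold. Cox4i2 had 57.1% GC, Ndufa4l2 59.3% and Cox6b2 56.0%. With the trend of all genes with GC taken off, as given further on, Cox4i2 and Ndufa4l2 were called neither. Cox6b2 was still called higher. The 4 pericyte markers summed to 114 TPM in library 2 and 151 TPM in library 1. Rgs5 held most of this sum, at 80.1 and 141 TPM, and was called lower, while Pdgfrb (3.68) and Kcnj8 (1.55) were called higher and Abcc9 neither, and their part in Cox4i2 was not tested. Cox7a2l, which helps join complexes III and IV into supercomplexes, was at 351 TPM in library 2 and 64.7 TPM in library 1 and was called higher (1.28). In the COX4, COX6A, COX6B, COX7B, COX8 and NDUFA4 families the widely expressed form held from 98.6% of the TPM in library 2 (Cox6b1) upward. In library 1 no alternative form of these families exceeded 1 count, beside 93 counts of Cox4i1 and 238 of Cox6a1 at the low end, so smaller shares were not detectable at this depth.

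**Figure D2:**
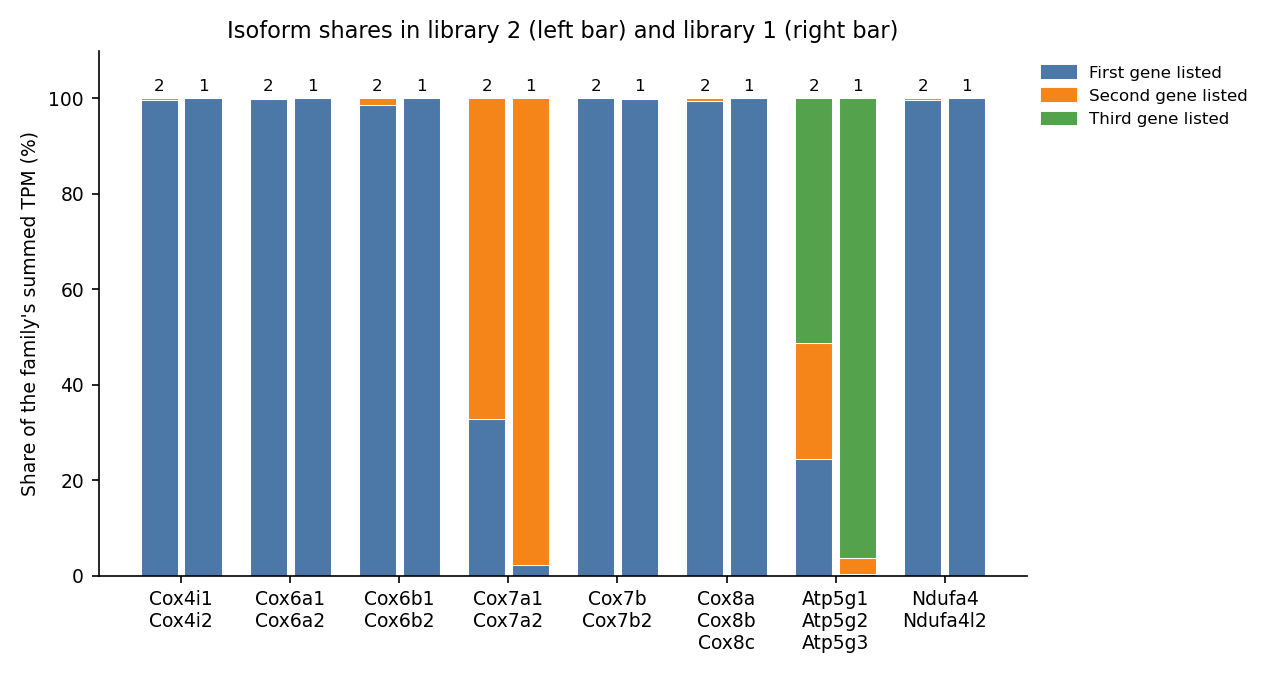
Share in percent of each gene in the summed TPM of its subunit family, for 8 families, with library 2 as the left bar and library 1 as the right bar of each pair. Cox7a1 holds 32.8% of its family in library 2 and 2.21% in library 1, and Atp5g3 holds 51.3% and 96.4%.

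ATP synthase consists of a catalytic head, a ring that turns in the membrane and a stalk that holds the head still. Of its 16 genes, 9 were called higher in library 2, 2 lower and 5 neither, with a median log2 ratio of 1.74. Atp5b, the catalytic subunit (chr10:128083273-128090391), had 31619 counts and 1399.7 TPM in library 2, against 10045 counts and 268 TPM in library 1. It was the member with the highest TPM in library 2 and ranked 14 in library 1, and it was called higher (1.23 ± 0.02). Its mean of 834 ± 800.2 TPM (SD, n = 2 technical libraries) had a spread nearly as large as itself. Atp5a1, which alternates with Atp5b in the head, had 24395 counts and 755 TPM in library 2, against 10128 counts and 418 TPM in library 1, and was called neither (0.84 ± 0.02). Atp5d, in the central stalk of the head, had 4971 counts and 459.9 TPM in library 2, against 3 counts and 0.17 TPM in library 1. Its ratio was 1231-fold with a 95% counting interval of 421 to 5969. Across the 5 head genes the highest TPM was 3.11 times the lowest in library 2 and 2459 times in library 1.

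The 3 c ring genes encode the same mature protein with different import signals. Atp5g1 was at 409.7 TPM in library 2 and 1.29 TPM in library 1, Atp5g2 at 403 and 9.55 TPM, and Atp5g3 at 856 and 289 TPM. They made up 24.6%, 24.2% and 51.3% of the family in library 2, against 0.43%, 3.18% and 96.4% in library 1. Atp5g1 and Atp5g2 were called higher (4.08 ± 0.13 and 4.37 ± 0.14) and Atp5g3 neither (0.40 ± 0.03). Of the 8 genes of the stalk and membrane part, 4 were called higher, 2 lower and 2 neither. Over all genes tested these shares were 37.0% higher and 28.2% lower. Atp5j, which encodes coupling factor 6, had 3097 counts and 441 TPM in library 2, against 5608 counts and 661 TPM in library 1, and was called lower (-1.29 ± 0.03). The other one called lower was Atp5f1, the b subunit of the stalk, named after its values were seen, at 326 TPM in library 2 and 405 TPM in library 1 (-1.09).

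Assembly factors build the complexes without remaining in them, and the group of Ndufaf1 to Ndufaf8 and Atp5s had the lowest median level of all groups in both libraries, at 14.8 TPM in library 2 and 7.01 TPM in library 1. Of these 9 genes, 2 were called higher in library 2, 4 lower and 3 neither. Over all genes tested 37.0% were called higher and 28.2% lower. The median log2 ratio of the 9 was -0.27 by scaled counts but 0.90 by deposited TPM. Ndufaf4 had 431 counts and 15.4 TPM in library 2, against 1607 counts and 29.5 TPM in library 1, the lowest ratio of the members (-2.33 ± 0.08). Ndufaf2 was at 23.1 TPM in library 2 and 24.8 TPM in library 1 (-1.25), and Ndufaf1 at 14.8 and 17.4 TPM (-1.42). Atp5s, a factor B protein linked to ATP synthase, was at 11.0 and 14.8 TPM (-1.59). Ndufaf8 had 251 counts and 49.1 TPM in library 2, against 10 counts and 0.70 TPM in library 1, and was called higher (4.15 ± 0.45).

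Genes of the pathway that lie outside the prefixes were taken from lists. Their calls stand beside 37.0% called higher and 28.2% called lower among all genes tested. Of 27 assembly factors for complexes II to V, 11 were called higher, 8 lower and 8 neither, with a median log2 ratio of 0.35. The 10 regulators of mitochondrial gene expression divided into 4 called higher, 4 lower and 2 neither. The 4 called higher had 55.1 to 61.6% GC and the 4 called lower 41.4 to 43.0% GC. Of all genes tested, 93.6% of at least 55% GC were called higher, and 88.0% under 45% GC were called lower. Esrra, an orphan nuclear receptor that drives oxidative genes, had 2473 counts in library 2 and 2 in library 1. Polrmt, the mitochondrial RNA polymerase, had 517 and 3 counts. Ppargc1a, the coactivator PGC-1 alpha, had 1532 counts in library 2 and 3196 in library 1 and was called lower (-1.49), while its relative Ppargc1b had 800 and 62 counts and was called higher (3.25). Among 6 carriers that supply ADP, phosphate and the outer membrane channel, none was called higher, 1 lower and 5 neither. Slc25a5, an ADP and ATP carrier, was at 1514 TPM in library 2 and 612 TPM in library 1.

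**Figure D3:**
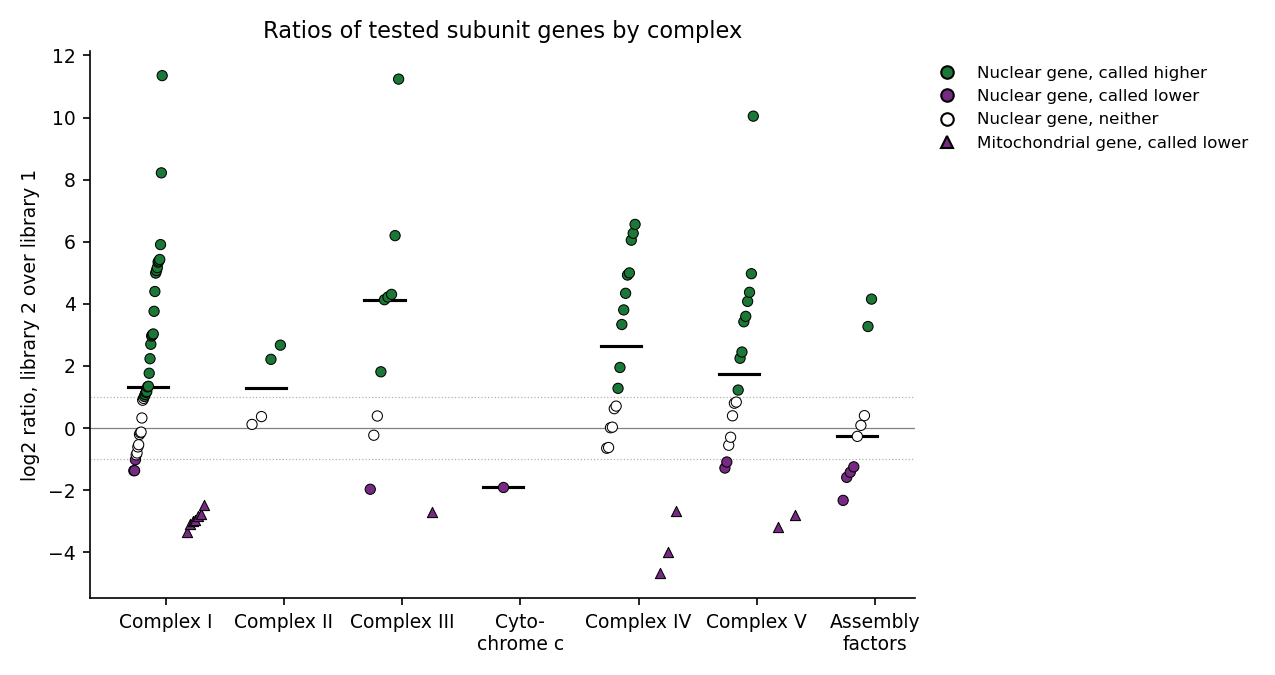
Log2 ratio of library 2 over library 1 for the tested nuclear genes of each complex (circles, filled by call) and for the mitochondrially encoded subunits (triangles), with black bars at the nuclear medians and dotted lines at 2-fold. Ratios of genes without a count in library 1 use a prior count of 0.5. The nuclear medians lie at 1.34 for complex I, 4.13 for complex III, 2.64 for complex IV and 1.74 for complex V, and all 13 mitochondrial genes lie between -4.67 and -2.47.

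The subunits made inside mitochondria were all lower in library 2. All 13 protein genes of mitochondrial DNA were called lower in library 2, with a median log2 ratio of -2.96, and they summed to 124260 TPM in library 2 and 437108 TPM in library 1. Within complex I, the median nuclear subunit was at 163 TPM and the median mitochondrial subunit at 2640.5 TPM in library 2, so that the nuclear level was 6.16% of the mitochondrial level. In library 1 these medians were 23.9 and 9901 TPM, or 0.242%. The same percentage was 3.25% in library 2 and 0.0573% in library 1 for complex III, 18.7% and 0.148% for complex IV, and 1.52% and 0.115% for complex V. The coding genes of mitochondrial DNA had a GC content of 31.9 to 41.1%, and 88.0% of all genes under 45% GC were called lower.

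The ratio of the members followed the GC content of their transcripts. Over the 91 tested members Spearman's rho between the 2 was 0.89 and Pearson's r 0.84, as a description across genes that share the same 2 libraries, and over 15664 genes rho was 0.90. Within complexes I, III, IV and V rho was 0.82 (36 genes), 0.87 (9), 0.82 (16) and 0.86 (16). The GC content here weights transcripts by their TPM, and with the GC of a single coding transcript per gene rho was 0.81. Of the 11 tested members under 45% GC, 1 was called higher and 7 lower. Of the 25 from 45 to 50%, 4 were called higher and 4 lower. Of the 30 from 50 to 55%, 22 were called higher and none lower, and all 25 of at least 55% were called higher. Among all genes, the shares called higher over the same steps were 0.293%, 4.41%, 53.9% and 93.6%, and the shares called lower were 88.0%, 23.7%, 2.44% and 0.614%. The 8 members with the highest ratios had a median GC of 58.0% and the 8 with the lowest a median of 42.7%.

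The levels showed the same arrangement. Members of at least 55% GC had a median of 195 TPM in library 2 and 1.60 TPM in library 1, and members under 45% had 97.3 and 82.2 TPM. The 26 members over 100 TPM in library 1 all had a GC content between 41.2 and 53.6%. With the trend of all genes with GC taken off, 33 members were called higher and 3 lower, against 12.4% and 11.2% of all genes, and the median log2 ratio was 0.56 over the members and -0.01 over all genes. Across the 91 tested members the ratio left over still rose with GC, at a Spearman's rho of 0.28 and a Pearson's r of 0.34. Of the 52 called higher, 30 were still called higher, 21 were called neither and 1 was called lower. Of the 11 called lower, 10 were then called neither, among them Uqcrb (-0.33), Cycs (-0.10), Ndufv2 (-0.52), Ndufaf4 (-0.37) and Atp5f1 (-0.24), and only Ndufb4, whose reads are shared with a pseudogene, was still called lower. Cox6a1 (-0.01), Cox8a (-0.40), Sdhb (-0.09) and Ndufs3 (-0.20) were among those that lost their call, while Atp5d, Ndufa11, Cox7a1, Cyc1, Cox4i1 and Ndufs8 remained above 2-fold, from 2.04 for Ndufs8 to 4.86 for Atp5d, which had 3 counts in library 1. Uqcr11 and Ndufa13 were also still called higher, but without a count in library 1 their ratios have no fixed size. Members also had short transcripts, with a median of 732 bases against 2496 over all genes tested. With the trend with length taken off alone, 40 were called higher and 28 lower, with a median of 0.22, against 31.5% and 35.0% of all genes. With both trends taken off, an alternative added after the data were seen, 23 were called higher and 6 lower, with a median of 0.29, against 10.8% and 11.9% of all genes.

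**Figure D4:**
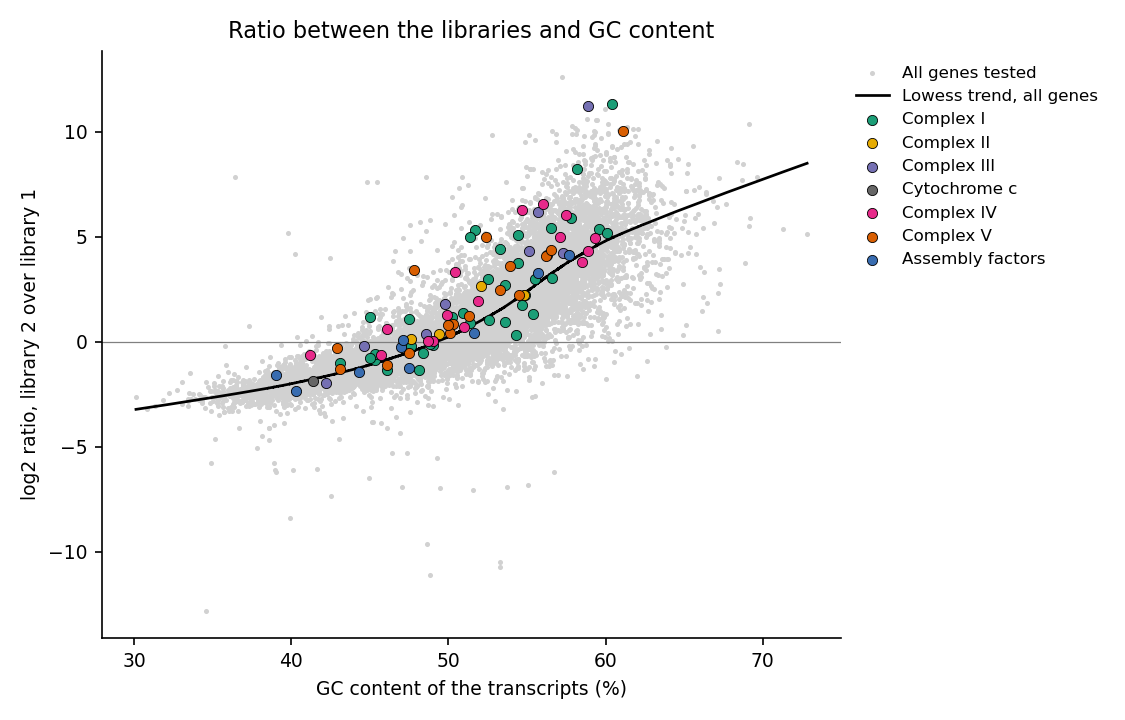
Log2 ratio of library 2 over library 1 against the GC content of the transcripts in percent, for all genes tested (grey), their lowess trend (black line) and the 91 tested members coloured by complex. Ratios of genes without a count in library 1 use a prior count of 0.5. The members run from -2.33 for Ndufaf4 at 40.3% GC to values above 10 for Ndufa13, Uqcr11 and Atp5d at 58.9 to 61.1% GC.

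Many of these genes have processed pseudogenes, intron-less copies elsewhere in the genome, with which reads can be shared. At least 10% of the 31-base words of 38 members, and at least 50% of those of 9, occurred in transcripts of another gene. Of 24 called members with such a gene in the tables, the sum of both stayed beyond 2-fold on the same side in 22 and did not in Ndufb4 and Atp5l. Ndufb4 had 359 counts in library 2 and 689.8 in library 1, its pseudogene Ndufb4c had 796 and 95.2, and their sum of 1155 and 785 gave a log2 ratio of 0.13. Atp5l, the g subunit of ATP synthase, had 3474 and 239.7 counts, its pseudogene Gm10221 had 394 and 1762, and their sum gave 0.52. The calls of these 2 genes are therefore uncertain. Cycs and Gm10053, a protein-coding entry that shares 32.0% of its words, summed to 4603 counts in library 2 and 11297 in library 1, with a ratio of -1.72. In addition, 32 members overlap a gene on the other strand, among them 16 of those called higher and 5 of those called lower, and whether the counting used strand is not given in the sources used here.

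The transcript tables assigned these genes to different transcripts in the 2 libraries. Of 47 members with a mean of at least 5 TPM, a second transcript at 10% or more and at least 20 counts in both libraries, 22 had the same leading transcript in both and 25 did not. The leading transcript was annotated as protein coding in 45 members in library 2 and in 30 in library 1. Transcripts annotated as retaining an intron led in none in library 2 and in 8 in library 1. The same counts over all genes are not given here, so whether they are particular to the members was not tested. The coding transcript ENSMUST00000026495 of Atp5a1 took 97.1% of the gene in library 2 and 24.7% in library 1, where a transcript annotated for nonsense-mediated decay took 74.9%. For Cox7b, a retained-intron transcript took 15.0% in library 2 and 91.1% in library 1. For Cox4i1, the leading coding transcript of library 2 took 96.3% there and 21.1% in library 1, where it rested on only 93 counts for the whole gene. Sdha kept its leading transcript, at 93.2% in library 2 and 73.6% in library 1, and so did Uqcrb, at 99.3 and 99.4%. A TPM depends on the length of the transcripts chosen. For Atp5g1 the effective length was 493 bases in library 2 and 4079 in library 1, so the gap in TPM, 409.7 against 1.29, was wider than the 17.0-fold ratio of scaled counts.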

How the data were processed

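Polyadenylated RNA of the sigmoid colon of 1 mouse was sequenced as 2 technical libraries, which form 1 group. Per the file headers, the authors deposited tables of genes and of transcripts on mm10 with GENCODE M4, holding expected counts (estimated counts of reads shared out by a model). Beside them stand the authors' TPM values, corrected for an effective length and summing to 1000000 per file, and the percent of a gene's abundance given to each deposited transcript. Other deposited columns used were the effective length and the posterior SD of the count. No source used here names the aligner, the quantifier or how strand was handled. The gene tables summed to 20681574 expected counts (library 2) and 25843064 (library 1), and where a library had no count its limit was taken as 3 counts.

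Members were matched by Ensembl identifier to GENCODE M21 on GRCm38, the same assembly as mm10. The annotation held 96 genes that met the rule, and 95 were in the files. The members, the lists and the rule for named genes were chosen with earlier results of these data known, so counts over them are descriptions. Named were the 3 members with the highest mean TPM in each group, all Sdh genes, Cyc1, Cycs, the isoform families with Cox7a2l, members below 1 TPM in both libraries, the 7 core subunits of complex I, and the 8 highest and 8 lowest ratios among members with a mean of at least 100 counts. The values of 1 gene that this rule names are not reported here. Any other gene named was chosen after its values were seen or belongs to a list.

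Expected counts were rounded. The effective size of library 2 was 1.35 times that of library 1 (TMM, edgeR 4.0.16 in R 4.3.3, over genes with a mean of at least 10 counts). With 1 library on each side no quasi-likelihood fit was possible, so counts were compared by a two-sided exact binomial test (scipy 1.17.1 in Python 3.11.15). Ratios used a prior count of 0.5. GC content was weighted by TPM over transcripts, and trends were lowess fits with a fraction of 0.2 (statsmodels 0.14.6). DESeq2 1.42.0 gave alternative size factors.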

Additional observations from a re-analysis of the deposited data

How the results depend on the processing

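The main counts were 52 members called higher and 11 lower in library 2, with a median log2 ratio of 1.33. With DESeq2 size factors, TMM over nuclear protein-coding genes, other count filters or a fold of 1.5, these stayed within 1.5 times or the counting error. At a fold of 4, 41 were higher and 1 lower. By deposited TPM, 67 were higher and 1 lower with a median of 2.5, while the median of all genes also moved, to 1.24. By TPM over nuclear protein-coding genes alone, 51 were higher and 12 lower with a median of 1.23, beside 0.05 over all genes tested there. With the GC trend taken off the values were 33, 3 and 0.56, with the length trend taken off 40, 28 and 0.22, and with both off, a setting added after the data were seen, 23, 6 and 0.29. edgeR's exact test with a common dispersion (the square root was 94.8%) called 0 members either way. Members with under 10% shared words, of which 53 were tested, gave 29 and 6, and structural subunits only gave 50 and 7 with a median of 1.79. These 2 settings test fewer genes by construction. The dispersion of edgeR's test was set by the differences between the same 2 libraries, which left it little room for calls. The cause of the other shifts was not tested.

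Some signs turned under other scalings. Examples are Ndufa4 (0.48) and Ndufab1 (0.48) by deposited TPM, Atp5a1 (-0.41) by nuclear protein-coding TPM, and Cox6c (-0.02) with TMM over nuclear protein-coding genes. With the GC or length trends taken off, signs turned in these members named by the rule. With the GC trend off they were Atp5j (0.19), Atp5s (0.56), Cox6a1 (-0.01), Cox7b (1.18), Cox8a (-0.40), Ndufs3 (-0.20) and Sdhb (-0.09), and, called in neither fit, Ndufa4 (0.29), Ndufa6 (-0.69), Ndufab1 (0.16) and Ndufs1 (0.30). With the length trend off they were Atp5g3 (-1.04), Cox6c (-1.28), Ndufa1 (-0.03) and Ndufs3 (-0.32), and, called in neither, Cox6b1 (-0.56), Ndufa6 (-0.40), Sdha (-0.33) and Sdhd (-0.75). With both off they were Atp5s (0.37), Cox6a1 (-0.62), Cox8a (-1.02), Ndufa6 (-1.30), Ndufaf8 (-0.30), Ndufs3 (-0.59), Ndufs7 (-0.17) and Sdhb (-0.37), and, called in neither, Atp5g3 (-0.38), Cox6b1 (-0.50), Cox6c (-0.40), Cox7b (0.68) and Ndufs1 (0.27).

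The summed TPM of the structural subunits was 20161 ± 15137 (SD, n = 2 technical libraries), 30865 without library 1 and 9458 without library 2, and 35576 over nuclear protein-coding genes. Leaving out a library returns the value of the other, so isoform shares and nuclear over mitochondrial levels then differ as the libraries do, for example 32.8% in library 2 and 2.21% in library 1 for Cox7a1, and 6.16% and 0.242% for complex I. With the full transcript length in place of the effective length, the Cox7a1 share was 24.8% in library 2 and 1.45% in library 1, and the nuclear level of complex V was 2.34% of the mitochondrial level on average, against 0.82% as deposited, with 1.52% in library 2 and 0.115% in library 1. No paired analysis was possible because both libraries belong to 1 group. In library 1, 30 members had under 100 counts, against 8 in library 2, which limits shares and ratios there.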

Other observations

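Genes of the same prefixes that the annotation does not class as protein coding were not members. Of 11 such processed pseudogenes, Ndufb4c was the only one above 2 counts in a library, at 260.81 TPM in library 2 and 19.5 TPM in library 1. In library 2 this was above the 37.0 TPM of Ndufb4 itself, and in library 1 it was below the 92.3 TPM of Ndufb4.

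Values of 3 genes outside the prefixes are given as well. Pet117, an assembly factor of complex IV, had no count in library 2 and 26.7 in library 1 and a GC content of 56.7%, while 93.6% of all genes of at least 55% GC were called higher. Usmg5, a small subunit of ATP synthase whose symbol escapes the rule, was at 527 TPM in library 2 and 656 TPM in library 1 and was called lower (-1.40 ± 0.05), while Atpif1, the inhibitor of the enzyme, was at 407 and 109 TPM and was called higher (1.14 ± 0.06).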
